A study of Mus musculus with 6 samples.

Results

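The 10 cadherin genes are described in tissue taken from the ventral and the dorsal side of the mouse aorta, namely Cdh2, Cdh3, Cdh4, Cdh6, Cdh8, Cdh10, Cdh11, Cdh12, Cdh13 and Cdh18. They were found by gene symbol in the annotation of the arrays, where all 10 were present among 24973 probe sets, 1 probe set per gene. The genes were chosen by their family and with the ventral minus dorsal log2 differences of these same arrays in view, so that difference is given as a description and supports nothing. Ventral tissue lay beneath the aorta and dorsal tissue filled the gap to the notochord above it, both from C57Bl/6 embryos at embryonic day 11.5. Each was profiled on 3 Affymetrix arrays after laser microdissection of sections 20 µm thick, with 200 to 1000 pg of RNA amplified per sample. The embryos carried no stated mutation or treatment, and the labels do not say how many embryos lie behind an array. With 3 arrays a side the precision of every value is limited, and p-values weigh a difference only against a spread estimated from these samples.

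Classical cadherins are membrane proteins that join cells to cells. Their extracellular repeats bind calcium and the same or a related cadherin on the neighbouring cell, and their cytoplasmic tail binds catenins that lead to actin filaments. Type I cadherins (here Cdh2, Cdh3 and Cdh4) support strong adhesion in epithelia, muscle, heart and neural tissue. Type II cadherins (here Cdh6, Cdh8, Cdh10, Cdh11, Cdh12 and Cdh18) are often restricted to subsets of neurons or of mesenchyme and sort such cells from each other. Cdh13 differs from all of these, since it is held in the membrane by a lipid anchor and has no cytoplasmic tail. Cdh3, or P-cadherin, is best known from epithelia, so the set is broader than mesenchyme and neurons.

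The labelled sides were described by marker genes of the tissues next to the aorta. Those lists were chosen with earlier results of these data known, so they give no independent check of the labels. Of 8 sclerotome and early cartilage genes, 7 had lower values on all 3 ventral arrays than on any dorsal array. Of 8 genes of visceral and coelomic mesenchyme, 6 had higher values on all 3 ventral arrays. Barx1 overlapped, and Foxf1 overlapped with a difference the other way (−1.71 ± 0.72, ventral minus dorsal, log2, SE). Among all named genes the tissues did not overlap for 12.2% (6.24% with ventral tissue higher). Array medians were 4.49 to 4.55 (log2), and the correlation between arrays ran from 0.956 to 0.976 (a figure over genes, not over replicates). Lists of endothelial, macrophage and erythroid genes averaged above the brightness level of 4.52 (log2), the median of all probe sets, on every array. Single genes lay below it, such as Adgre1 at 4.12 on dorsal 3, and a value above that level does not by itself show a cell type. In such bulk samples, fewer cells of a type and less RNA per cell cannot be told apart.

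All values below are the deposited log2 expression levels, which can be compared between arrays for 1 gene and not between genes. Differences are ventral minus dorsal on the log2 scale with the standard error (SE) from limma, fitted across the whole table with the replicate number as a block. Genes averaging at or above the brightness level over the 6 arrays were tested, which 7 of the 10 cadherins did. Cdh4, Cdh8 and Cdh12 averaged below it and were not tested. Of the 10 differences, 8 were above 0 and 2 below, with a median of 0.54, while over all 24015 named genes 50.5% were above 0, with a median of 0.00. Without replicate 3 the median of the 10 was 0.25, with 6 above and 4 below 0. Of the 7 tested cadherins 1, Cdh18, lay past an adjusted p of 0.05, as did 0.515% of all 12028 genes tested (0.308% with ventral tissue higher). The ventral and the dorsal arrays did not overlap for 3 of the 10 genes, namely Cdh18, Cdh11 and Cdh8, each higher in ventral tissue, and did not overlap for 12.2% of all named genes (6.24% with ventral tissue higher). Since this contrast was known when the genes were chosen, nothing is read from these counts.

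**Figure D1:**
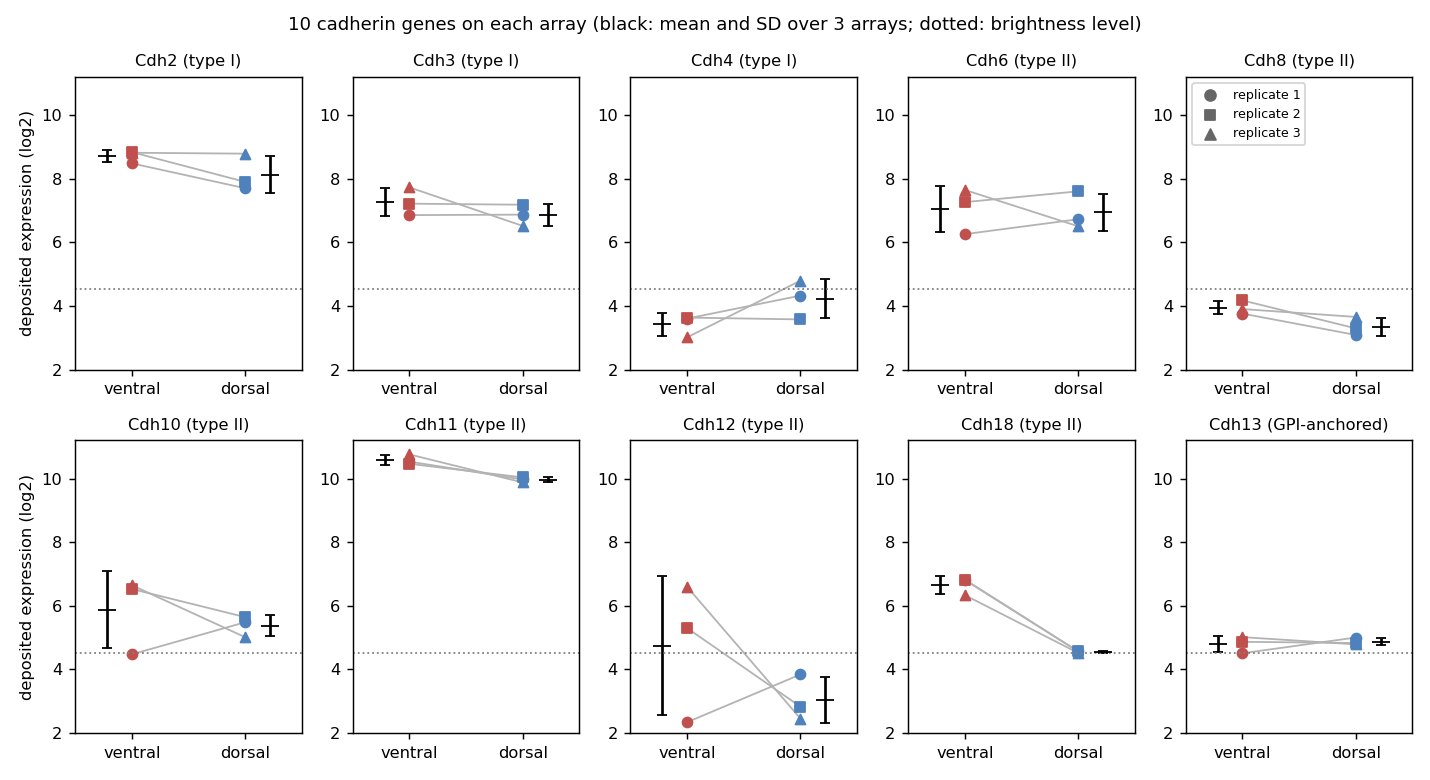
Deposited expression (log2, y axis) of the 10 cadherin genes on the ventral and the dorsal arrays (x axis). Grey lines join arrays with the same replicate number, black bars give the mean and SD over 3 arrays, and the dotted line is the brightness level of 4.52. The tissues are apart for Cdh18, Cdh11 and Cdh8, and on ventral arrays Cdh10 and Cdh12 spread widely, with replicate 1 low.

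Among type I genes, Cdh2 encodes N-cadherin, the cadherin of neural tube, somites and much embryonic mesenchyme. Cdh2 read 8.49, 8.84 and 8.82 on ventral arrays 1, 2 and 3, and 7.70, 7.90 and 8.79 on dorsal arrays 1, 2 and 3. The ventral arrays lay close together, whereas dorsal 3 stood well above the other dorsal arrays and inside the ventral range, so the tissues overlapped. The mean was 8.72 ± 0.20 in ventral and 8.13 ± 0.58 in dorsal tissue (SD, n = 3 each), a difference of 0.58 ± 0.23 (SE). The differences within pairs 1, 2 and 3 were 0.78, 0.94 and 0.03.

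Cdh3 read 6.86, 7.22 and 7.73 on ventral arrays 1, 2 and 3, and 6.87, 7.19 and 6.52 on the dorsal arrays. Pairs 1 and 2 were nearly level (−0.02 and 0.03), and the difference of 0.41 ± 0.28 came from pair 3 (1.21). Without replicate 3 it was 0.01. The ventral 3 array was also the highest for Cdh1, or E-cadherin, the main epithelial cadherin, at 7.23 against 4.75 to 6.05 on the other 5 arrays. Other epithelial markers were high on that array, with Krt8 at 7.46 and Krt18 at 8.11, while the kidney and nephric duct factor Pax2 stayed below the brightness level on all 6 arrays. The 8 epithelial markers together averaged from −0.26 to 0.88 on ventral and from −0.25 to −0.02 on dorsal arrays, relative to each gene's own mean. Their part in the Cdh3 value was not tested.

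Cdh4, or R-cadherin, which is known from retina and other neural tissue, was the type I gene with lower values in ventral tissue. Cdh4 read 3.60, 3.64 and 3.01 on ventral arrays 1, 2 and 3, and 4.33, 3.58 and 4.80 on the dorsal arrays. Dorsal 2 lay among the ventral arrays, so the tissues overlapped, and dorsal 3 was the single array above the brightness level. The difference was −0.82 ± 0.36, and −0.33 without replicate 3. The 5 named markers of neural crest and Schwann precursors averaged −0.37 to −0.15 on ventral and −0.34 to 0.59 on dorsal arrays, relative to each gene's mean. The highest mean, on dorsal 3, came from Fabp7, a fatty acid-binding protein of glial precursors, at 6.63, 6.77 and 6.11 on ventral and 6.41, 8.13 and 10.75 on dorsal arrays 1, 2 and 3. On that array Sox10, the defining factor of the lineage, was at its lowest, 4.05. The part of these markers in the Cdh4 value was not tested.

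Among type II genes, Cdh11 encodes OB-cadherin, the cadherin of loose mesenchyme and of bone-forming cells. Cdh11 read 10.53, 10.47 and 10.76 on ventral arrays 1, 2 and 3, and 9.97, 10.04 and 9.88 on the dorsal arrays. All ventral arrays lay above all dorsal arrays, and the spread was small on both sides (SD 0.15 in ventral and 0.08 in dorsal tissue). The difference was 0.62 ± 0.18, a 1.54-fold higher value in ventral tissue, and the 3 pairs gave 0.56, 0.43 and 0.88.

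Cdh18 is a type II cadherin best known from the brain. It read 6.81, 6.82 and 6.34 on ventral arrays 1, 2 and 3, and 4.56, 4.57 and 4.52 on the dorsal arrays. The dorsal arrays lay at the brightness level with a range of 0.05, which was larger than that of 1.70% of all named genes, and against values at that level the fold of 4.32 gives no exact ratio of transcript. The ventral arrays stood apart from them in each pair (2.25, 2.26 and 1.82), with a difference of 2.11 ± 0.19. Without the brightness filter it was not past the threshold in limma (adjusted p = 0.0644). The genes most like Cdh18 over the 6 arrays, by Pearson correlation, were the phosphodiesterase gene Pde5a (r = 0.998), G630016G05Rik (0.991) and Myrf (0.989). Those most like Cdh11 were the neurotrophin-3 receptor gene Ntrk3 (0.993), the sialyltransferase gene St8sia1 (0.989) and the proteoglycan gene Dcn (0.986). The 6 arrays fall into the same tissues for all of these genes, so the coefficients also reflect the gap between the tissues.

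Cdh8, a type II cadherin of developing neurons, read 3.76, 4.18 and 3.90 on ventral arrays 1, 2 and 3, and 3.09, 3.30 and 3.66 on the dorsal arrays. The tissues did not overlap, with a difference of 0.60 ± 0.18, yet all 6 values lay below the brightness level. Cdh13, the lipid-anchored T-cadherin of vessels and neurons, read 4.51, 4.87 and 5.01 on ventral arrays and 5.001, 4.83 and 4.78 on dorsal arrays. Its difference was −0.08 ± 0.21, smaller than the SD within either tissue (0.26 in ventral and 0.11 in dorsal tissue), and it was 0.13 without replicate 1.

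**Figure D2:**
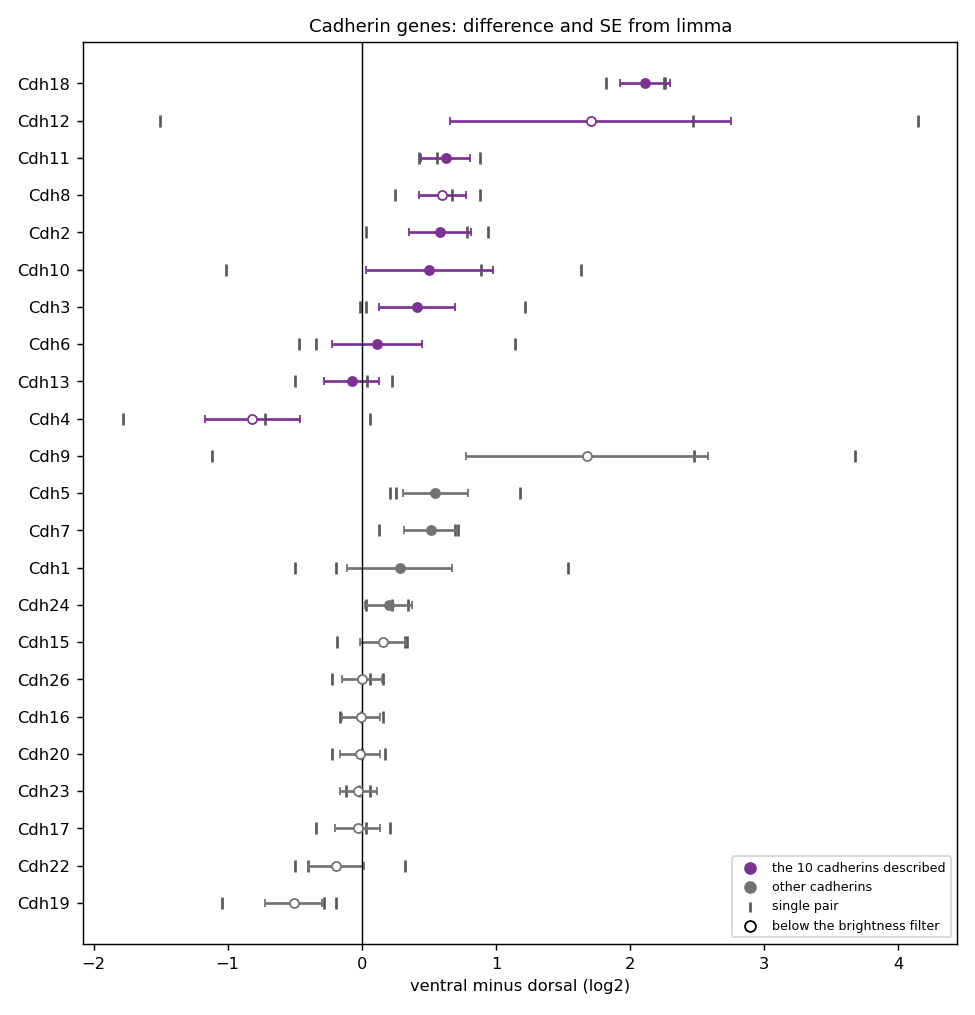
Difference between ventral and dorsal tissue (log2, x axis) for the 10 cadherins and, in grey, 13 other cadherins (y axis). Circles and bars give the estimate and SE from limma, ticks the 3 single pairs, and open circles mark genes below the brightness filter. Cdh18 has 3 pairs close together, and for Cdh12 and Cdh9 pair 1 lies below 0 while pairs 2 and 3 lie above it.

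Of the 6 type II genes, 4 lie in a row on mouse chromosome 15. In the RefSeq gene table of build GRCm38.p6 the order is Cdh6, Cdh9, Cdh10, Cdh12 and Cdh18, and Cdh9, which is not one of the 10 genes, is the remaining cadherin of the row. With protein-coding genes of that table ordered by lowest coordinate, no gene but these cadherins falls between Cdh6 and Cdh12. In that order 1, Acot10, falls between Cdh12 and Cdh18. The starts of all 5 genes are in the RefSeq promoter table, and the 250 bases before each start are printed. The part of these sequences in the array values was not tested. Capitals mark runs of at least 12 bases that occur in the promoters of 2 of the 5 genes. The windows are chr15:13173676-13173925 (minus strand) for Cdh6, and on the plus strand chr15:16728665-16728914 for Cdh9, chr15:18820079-18820328 for Cdh10, chr15:21111202-21111451 for Cdh12 and chr15:23036213-23036462 for Cdh18.
Cdh6: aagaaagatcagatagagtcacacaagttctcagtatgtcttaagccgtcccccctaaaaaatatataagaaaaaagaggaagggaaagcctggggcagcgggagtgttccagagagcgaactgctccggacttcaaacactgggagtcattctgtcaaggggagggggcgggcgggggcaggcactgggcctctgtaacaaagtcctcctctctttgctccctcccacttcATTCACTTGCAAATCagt
Cdh9: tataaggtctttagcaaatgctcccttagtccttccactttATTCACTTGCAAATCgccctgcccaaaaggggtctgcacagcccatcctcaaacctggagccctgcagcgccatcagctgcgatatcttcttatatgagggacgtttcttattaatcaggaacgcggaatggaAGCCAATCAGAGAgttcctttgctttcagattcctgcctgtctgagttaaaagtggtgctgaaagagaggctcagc
Cdh10: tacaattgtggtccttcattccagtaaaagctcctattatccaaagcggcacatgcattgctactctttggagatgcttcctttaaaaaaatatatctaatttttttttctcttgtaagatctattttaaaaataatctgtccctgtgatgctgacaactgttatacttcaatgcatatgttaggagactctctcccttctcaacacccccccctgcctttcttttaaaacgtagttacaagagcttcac
Cdh12: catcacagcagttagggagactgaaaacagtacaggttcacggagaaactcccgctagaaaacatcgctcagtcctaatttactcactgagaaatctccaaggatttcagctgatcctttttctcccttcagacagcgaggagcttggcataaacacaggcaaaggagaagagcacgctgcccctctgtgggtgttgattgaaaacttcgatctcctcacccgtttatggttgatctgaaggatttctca
Cdh18: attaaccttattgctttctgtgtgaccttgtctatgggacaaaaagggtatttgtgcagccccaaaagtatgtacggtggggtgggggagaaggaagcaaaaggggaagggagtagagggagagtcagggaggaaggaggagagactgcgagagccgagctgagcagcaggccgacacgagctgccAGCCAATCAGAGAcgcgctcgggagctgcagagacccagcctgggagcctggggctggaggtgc

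The promoters of Cdh6 and Cdh9 share a run of 15 bases, ATTCACTTGCAAATC, each read in the direction of its own gene, starting 18 bases before the start of Cdh6 and 209 bases before that of Cdh9. Of 32851 promoter windows in the table, those 2 held it on either strand. Cdh9 and Cdh18 share AGCCAATCAGAGA, of 13 bases, starting 76 and 64 bases before their starts. That run includes the letters CCAAT, known as the CCAAT box, and was present in 31 of the 32851 windows. Searched alone on both strands, these letters were in 33.9% of all windows and in no other promoter of the 5. Further motifs were searched on both strands and found in none of the 5 windows. The TATA box, with the letters TATAAA, was in 12.4% of all windows. The E-box that Snail and Zeb factors bind, CACCTG, was in 17.2% of them. The letters AGATAA, a motif of GATA factors, were in 9.99% of them. GC content was 36.8% in the Cdh10 window and 58.0% in that of Cdh18, with 51.2% for Cdh6, 48.0% for Cdh9 and 46.8% for Cdh12, and a median of 52.4% over all windows. The longest run that Cdh10 and Cdh12 share is 9 bases.

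Of this row, Cdh12, known as a brain cadherin, varied most among arrays of 1 tissue. Cdh12 read 2.34, 5.30 and 6.60 on ventral arrays 1, 2 and 3, and 3.84, 2.83 and 2.45 on dorsal arrays. Ventral 1 was the lowest of all 6 arrays and ventral 2 and 3 were the highest, with all dorsal arrays inside the ventral range. Ventral 1 and all dorsal arrays lay below the brightness level, so their order and the pair 1 difference rest on weak signals. The range of 4.26 within ventral tissue was larger than that of 99.9% of all named genes, whose median range was 0.39. The difference between the tissues was 1.71 ± 1.04, with −1.50, 2.47 and 4.14 in the pairs, and 3.31 without replicate 1.

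Cdh10, a type II cadherin of brain and of its vessels, showed the same order of ventral arrays. Cdh10 read 4.47, 6.53 and 6.65 on ventral arrays 1, 2 and 3, and 5.48, 5.64 and 5.01 on the dorsal arrays. Ventral 1 was again the lowest of all arrays and the other ventral arrays the highest. The difference was 0.50 ± 0.47 over all pairs, 1.26 ± 0.27 without replicate 1 and −0.06 without replicate 3.

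Cdh9, the neighbour between Cdh6 and Cdh10, read 3.01, 6.16 and 6.88 on ventral arrays 1, 2 and 3, and 4.12, 3.68 and 3.20 on the dorsal arrays. Its range within ventral tissue, 3.87, exceeded that of 99.9% of all named genes. For Cdh9 too, ventral 1 and all dorsal arrays lay below the brightness level. Cdh6, known from the developing kidney and from neural crest, read 6.26, 7.27 and 7.65 on ventral arrays and 6.73, 7.61 and 6.51 on dorsal arrays. For Cdh6 too ventral 1 was the lowest array and ventral 3 the highest, but dorsal 2 was nearly as high as ventral 3. Levels also rose from ventral 1 to ventral 3 in Cdh3, Cdh5, Cdh7 and Cdh13, which lie on other chromosomes. The difference for Cdh6 was 0.11 ± 0.33, and −0.40 without replicate 3.

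After these values were seen, all named genes were searched for a level on ventral 1 at least 2 (log2) below both other ventral arrays. This held for 27 of 24015 genes, or 0.112%, and Cdh9, Cdh10 and Cdh12 were 3 of them. Their gaps were 3.15, 2.06 and 2.96, so Cdh10 passed the limit narrowly. Since the search was set up from these genes, the count is a description. No cadherin stood as far below or above the other arrays of its tissue on any of the other 5 arrays, where 4 to 13 genes lay as far below. The genes on either side of the stretch from Cdh6 to Cdh12 did not vary in this way. Drosha read 7.91, 7.98 and 8.01 on ventral arrays 1, 2 and 3, and Acot10 read 5.69, 5.44 and 5.94. Cdh18, beyond Acot10, was as high on ventral 1 as on ventral 2.

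**Figure D3:**
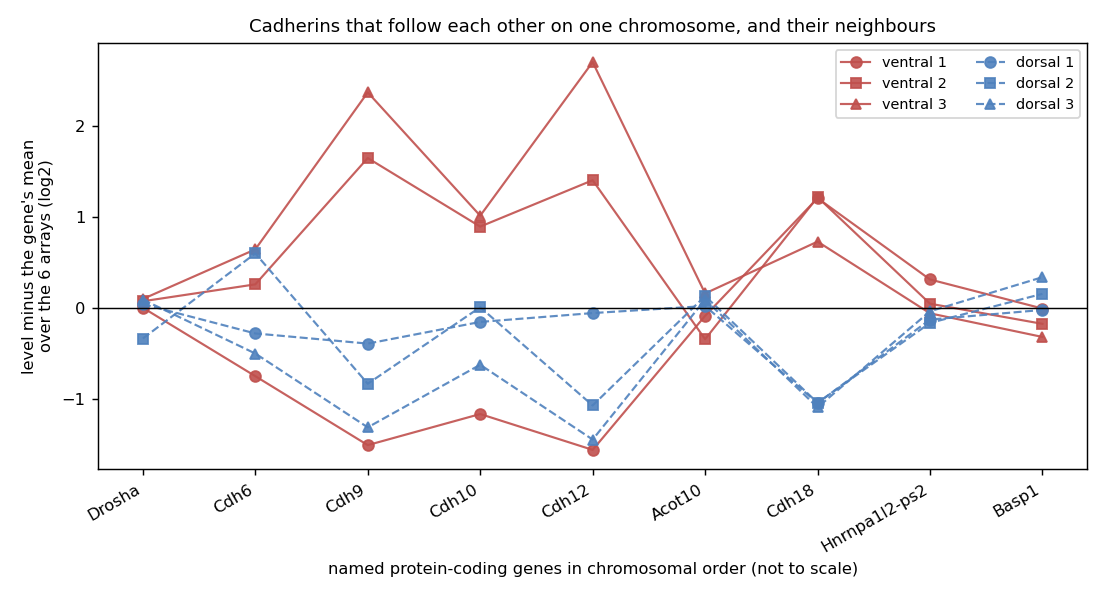
Level of each gene on each array after subtraction of the gene's own mean (log2, y axis) for the named protein-coding genes around the cadherins of chromosome 15, in their order along the chromosome (x axis, not to scale). Red lines are ventral and blue dashed lines dorsal arrays. From Cdh6 to Cdh12 the ventral 1 array lies lowest and ventral 3 highest, whereas at Cdh18 all ventral arrays lie above all dorsal arrays.

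Several marker lists also differed between ventral 1 and the other ventral arrays. The 10 neuronal markers averaged −0.58, −0.03 and 0.32 on ventral arrays 1, 2 and 3, relative to each gene's mean, against 0.03 to 0.23 on dorsal arrays. The 6 sympathoadrenal markers averaged −0.91, 0.09 and 0.27 on the ventral arrays, against −0.70 to 0.72 on the dorsal arrays. Smooth muscle and pericyte markers (8 genes) ran the other way among ventral arrays, at 1.29, 0.48 and −0.17, against −0.90 to −0.18 on dorsal arrays. The noradrenaline-synthesis gene Dbh illustrates the sympathoadrenal list, with 5.44, 8.13 and 8.59 on ventral and 9.55, 9.66 and 6.75 on dorsal arrays. Each of Cdh9, Cdh10 and Cdh12 was lower on dorsal 3 than on the other dorsal arrays, as Dbh was. On dorsal 1 and 2, however, Dbh read above every ventral array, whereas Cdh9 and Cdh12 read below the brightness level. Of the 6 sympathoadrenal genes, 4 had differences below 0 and 2 above. The 8 visceral and coelomic mesenchyme markers averaged 0.25, 1.25 and 0.90 on the ventral arrays, lowest on ventral 1 too, against −1.08 to −0.56 on the dorsal arrays. Endothelial markers averaged −0.03, 0.27 and 0.43 on ventral arrays 1, 2 and 3, and erythroid markers −0.38, −0.02 and −0.31. Ventral 1 was the highest ventral array for sclerotome, neural crest, skeletal muscle, notochord and macrophage markers. The part of these cells in the values of Cdh9, Cdh10 and Cdh12 was not tested.

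**Figure D4:**
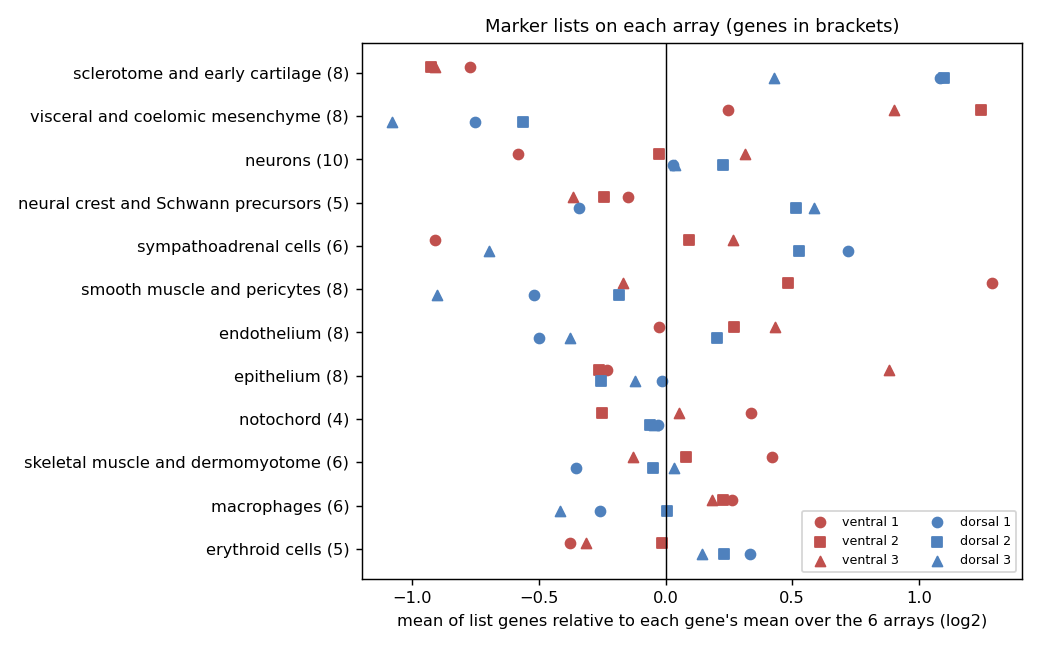
Mean of each marker list on each array after subtraction of every gene's own mean (log2, x axis), with ventral arrays in red above dorsal arrays in blue (y axis, number of named genes in brackets). Sclerotome and visceral lists separate the tissues, as do macrophage, erythroid and smooth muscle lists by smaller gaps. Among ventral arrays replicate 1 is lowest for the visceral list, neurons, sympathoadrenal cells, endothelium and erythroid cells. It is highest for smooth muscle and pericytes, sclerotome, neural crest, skeletal muscle, notochord and macrophages.

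The remaining 13 cadherins of the family were compared as a list, to show whether differences between the sides of the aorta extended beyond the 10 genes. Of them 4 were above the brightness filter, and limma called none at an adjusted p of 0.05 (1 had an unadjusted p under 0.05, as did 10.7% of all genes tested). Cdh5, the cadherin of endothelial junctions, had a difference of 0.55 ± 0.24 (adjusted p = 0.497). Cdh7, known from neural crest and motor neurons, had one of 0.51 ± 0.20 (0.439), and Cdh24 one of 0.20 ± 0.18 (0.776). Cdh1 had one of 0.28 ± 0.39 (0.874). The median of these 4 was 0.40, against −0.01 over all genes tested. Over all 13 genes the median was 0.00, with 7 above and 6 below 0, and the tissues overlapped for each of the 13. Cdh19, known from Schwann cell precursors, was below the filter at 2.80, 3.09 and 2.66 on ventral and 2.99, 4.13 and 2.94 on dorsal arrays. Cdh15, Cdh16, Cdh17, Cdh20, Cdh22, Cdh23 and Cdh26 were also below it, with differences from −0.19 (Cdh22) to 0.16 (Cdh15). Cdh9 was below it too and had the largest difference of the 13, at 1.68 ± 0.90. Its pairs 1, 2 and 3 gave −1.11, 2.48 and 3.68, and without replicate 1 the difference was 3.08.

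Catenins and other proteins of adherens junctions carry the link from cadherin tails to actin. Of 20 such genes 16 were tested, 9 with differences above and 7 below 0 (median 0.18), and none was called by limma. An unadjusted p under 0.05 was found for 1, and for 10.7% of all genes tested. Among those tested, the largest difference in size was in Ctnnal1, an alpha-catenin relative, which read 6.56, 6.12 and 6.55 on ventral arrays 1, 2 and 3, and 7.54, 7.35 and 7.29 on the dorsal arrays. All ventral arrays lay below all dorsal arrays, at −0.98 ± 0.19 (adjusted p = 0.117). Lima1, an actin-binding protein of junctions, followed at 0.46 ± 0.29 (adjusted p = 0.662), then Jup, or plakoglobin, at 0.45 ± 0.20 (0.497) and the adhesion receptor gene Nectin3 at −0.38 ± 0.20 (0.573). Ctnnb1, or beta-catenin, averaged 9.50 ± 0.06 in ventral and 9.59 ± 0.12 in dorsal tissue (SD, n = 3 each). Ctnna1, the alpha-catenin of most non-neural cells, averaged 8.35 ± 0.20 in ventral and 8.05 ± 0.13 in dorsal tissue. Neither was called (differences of −0.09 ± 0.17 and 0.30 ± 0.17, SE). The neural alpha-catenin gene Ctnna2 was below the filter and not tested. Its difference was −0.77, without overlap, at 3.89, 4.10 and 4.04 on ventral and 4.41, 4.36 and 5.56 on dorsal arrays. Jup did not overlap either, with ventral tissue higher, and 12.2% of all named genes did not overlap.

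Snail, Twist and Zeb factors control the change between epithelial and mesenchymal cadherins. Of 7 such genes 5 were tested and none was called in limma, with a median of 0.04. An unadjusted p under 0.05 was found for 1, and for 10.7% of all genes tested. Zeb2, a zinc-finger repressor of E-cadherin, read 7.19, 7.96 and 8.59 on ventral arrays 1, 2 and 3, and 6.69, 6.85 and 6.83 on the dorsal arrays. Its tissues did not overlap, with a difference of 1.12 ± 0.26 (adjusted p = 0.187). The untested Snai3 did not overlap either, with ventral tissue lower (−0.25), and 12.2% of all named genes did not overlap. Snai1 (−0.46 ± 0.32, adjusted p = 0.696), Zeb1 (0.08 ± 0.27, 0.956) and Twist1 (−0.08 ± 0.20, 0.942) had smaller differences.

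Proteases trim cadherins at the cell surface or during maturation. All 9 named genes of that list were tested, 5 with differences above and 4 below 0 (median 0.01), and limma called none. An unadjusted p under 0.05 was found for 1, and for 10.7% of all genes tested. Adam10, the sheddase that cleaves N- and E-cadherin, read 8.41, 8.48 and 9.19 on ventral arrays 1, 2 and 3, and 7.99, 8.12 and 8.05 on the dorsal arrays. Its tissues did not overlap, as for 12.2% of all named genes, with a difference of 0.64 ± 0.22 (adjusted p = 0.355). Furin, which removes the propeptide of classical cadherins, had a difference of 0.23 ± 0.18 (adjusted p = 0.740), Adam15 one of 0.21 ± 0.19 (0.777) and Adam17 one of 0.19 ± 0.22 (0.843).

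**Figure D5:**
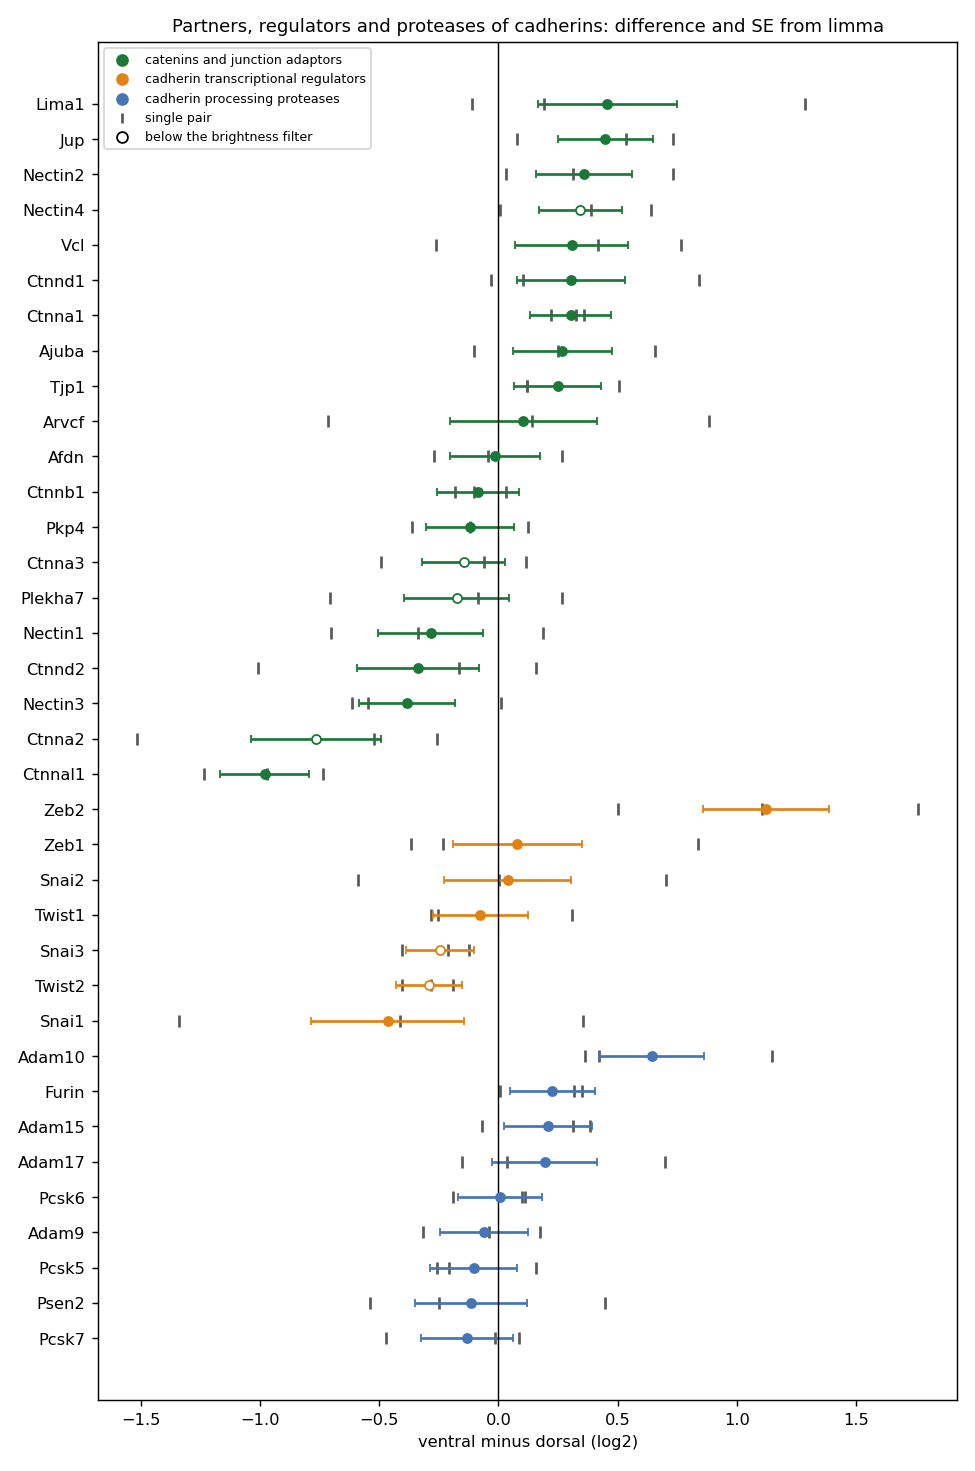
Difference between ventral and dorsal tissue (log2, x axis) for catenins and junction adaptors, transcriptional regulators and proteases of cadherins (y axis). Circles and bars give the estimate and SE from limma, ticks the 3 single pairs, and open circles mark genes below the brightness filter. Ctnnal1 at −0.98 and Zeb2 at 1.12 lie farthest from 0, and neither passed an adjusted p of 0.05.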

How the data were processed

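Dorsal and ventral aortic tissue was measured on 3 arrays each. The values deposited by the authors are log2 expression levels. RMA and Affymetrix Expression Console are the tools in the submitters' processing notes; RMA subtracts background, equalises array distributions by quantiles and merges probes into probe sets. Such values compress the differences of weak genes, and amplification of picogram amounts of RNA can distort ratios. Their versions and a genome build are not stated in the labels or notes used. Rows carry Entrez gene identifiers. The platform annotation gave a single symbol for 24015 of the 24973 probe sets, several for 0 and none for 958, which are unnamed here. Older symbols were updated through the Entrez identifier in a RefSeq table of build GRCm38.p6, used for names and gene order. Promoters are RefSeq's, of build GRCm38.p6, and held 5 of the 10 cadherins.

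Ventral minus dorsal was fitted with limma 3.58.1 under R 4.3.3 (lmFit, eBayes without a trend), two-sided, with Benjamini-Hochberg adjustment over 12028 named genes averaging at least 4.52 (log2), and a threshold of 0.05. The fit was tested on simulated data. The replicate number was a fixed block because, per the labels, both tissues came from the same embryos, although a number is not said to mark an embryo. After tissue means were subtracted, ventral and dorsal arrays of one number correlated by 0.0786, 0.0546 and 0.191, and those of unlike numbers by −0.136 to 0.0764. The members and all gene lists were chosen with earlier results of these data known. Named were all 23 cadherins and, of each further pathway list, called genes and the 4 with the largest absolute difference among those tested. Ctnnb1, Ctnna1, Ctnna2, the single marker genes named and the genes beside the cadherins were added after values were seen. So were the genes named under other observations. Of 137 list entries, 131 were named on the array. No scan date or other batch was given in the labels.

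Macrophage and erythroid lists also separated the tissues by their means. Further marker lists, these included, are given as means. Their mean levels, relative to each gene's mean, ran from −0.03 to 0.43 on ventral and −0.50 to 0.20 on dorsal arrays for endothelium (8 genes), 0.18 to 0.26 on ventral and −0.42 to 0.00 on dorsal arrays for macrophages (6), −0.38 to −0.02 on ventral and 0.14 to 0.34 on dorsal arrays for erythroid cells (5), −0.13 to 0.42 on ventral and −0.35 to 0.03 on dorsal arrays for skeletal muscle (6) and −0.25 to 0.34 on ventral and −0.06 to −0.03 on dorsal arrays for notochord (4). Alternatives were no block, no or a stricter filter, other scalings of arrays, a trend or robust eBayes, and leaving out each replicate.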

Additional observations from a re-analysis of the deposited data

How the results depend on the processing

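Over all genes, limma called 62, with 10 called without the brightness filter (9 of them among the 62) and 94 with a trend in eBayes. No replicate block gave 59 calls, 45 of them shared. Leaving out a replicate gave 48 to 75 calls. Cdh18 was the 1 cadherin of the set that was called, as it was with no replicate block and without each replicate. Without the brightness filter 0 of the 10 were called in limma (4 with an unadjusted p under 0.05, as had 8.12% of all genes), with an adjusted p of 0.0644 for Cdh18, whose adjusted p over the alternatives ran from 0.00487 to 0.0644. With the stricter filter (6.07, log2) 0 of 4 were called (2 unadjusted, as had 11.9% of all genes), since Cdh18 was below it. The median of the 10 differences was 0.54 and ran from 0.25 to 0.59 when a replicate was left out. For the other cadherins and the 3 lists of partners, all 40 counts under the 10 alternatives were 0. Each of the 10 kept the sign of its difference under both other scalings of the arrays, and Cdh6, Cdh10 and Cdh13 changed sign without 1 replicate, as given with their values. With no replicate block no call on a cadherin, partner, regulator or protease gene changed. Values near the brightness level limit what can be said of Cdh4, Cdh8, Cdh12 and the dorsal side of Cdh18.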

Other observations

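Among the 27 named genes at least 2 (log2) lower on ventral 1 than on both other ventral arrays, the gap was greatest for Nr1h5, a nuclear receptor gene, at 3.25, 8.10 and 7.64 on ventral arrays 1, 2 and 3 and 3.12 to 3.27 on dorsal arrays. The next were Agtr2, an angiotensin receptor gene, at 3.76, 8.04 and 8.44 on ventral and 7.36 to 9.39 on dorsal arrays, and Chgb, a granin of secretory granules, at 3.39, 6.95 and 7.36 on ventral and 5.75 to 7.88 on dorsal arrays. Cdh9 had the fourth largest gap, 3.15. Also among them were Fgf10, a growth factor of mesenchyme, at 3.42, 6.63 and 6.11 on ventral and 3.25 to 3.68 on dorsal arrays, and Isl1, a homeobox factor, at 5.50, 8.18 and 8.44 on ventral and 5.07 to 6.60 on dorsal arrays. Fgf10 and Nr1h5 resembled Cdh9 in being low on the dorsal arrays as well, while Agtr2 and Chgb were high there. On ventral 1, 43 named genes were at least as far above both other ventral arrays, and on ventral 3, 48 were. None of the 23 cadherins was among either.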
